A study of Mus musculus with 14 samples.

Results

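The 39 genes described here are interferon-stimulated genes of the mouse, of which 30 are known mainly as targets of type I interferon and 9 are GTPases known for their induction by interferon gamma. They were picked by gene symbol, and 37 of the 39 had a row among the 17552 genes of the deposited expression table (28 type I members and 9 GTPases). Mx1 and Mx2 were not analysed here. The samples were livers of male Apoe-deficient mice of the C57BL/6 strain, which lack apolipoprotein E and are prone to high plasma cholesterol and a fatty liver. The control group received a Western diet, and the erythrodiol group received the same diet with erythrodiol, a triterpene alcohol of the olive, at a dose of 10 mg/kg. By the labels, both groups were 8 weeks old and spent 8 weeks on their diets. Another, longer time on the diets is given in the study's methods. Each group held 7 libraries, each made from polyA RNA pooled from a few mice, so that differences between single mice were averaged within a library. Apoe, the gene disrupted in every mouse of both groups, still had 9403 control and 8293 erythrodiol counts. Which exons these reads cover is not known, so that this is no check of the genotype. The study itself reports by RT-PCR that livers of its Apoe-deficient mice did not express Apoe.

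Type I interferons bind a receptor of Ifnar1 and Ifnar2, whose kinases Jak1 and Tyk2 activate STAT proteins such as Stat2. Together with Irf9 these bind a DNA motif called the interferon-stimulated response element. Interferon gamma binds Ifngr1 and Ifngr2, and its signal reaches genes through a motif called the gamma-activated sequence. Products of the type I members sense foreign RNA or DNA, block translation, degrade RNA or hold virus particles at the membrane. Guanylate-binding proteins (GBPs) and immunity-related GTPases (IRGs) attack the vacuoles in which bacteria and parasites live inside cells. Hepatocytes, Kupffer cells and endothelial cells of the liver can all respond to interferons.

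The motifs of both pathways can be read in the promoters of the members, from 250 bases before to 50 bases after the start site, as RefSeq gives them on GRCm38.p6. A promoter was found for 28 of the 37 members, the others being Oas2, Usp18, Dhx58, Rtp4, Parp9, Parp14, Zbp1, Gbp6 and Iigp1. The response element was searched on either strand as a repeat of GAAA with any 2 bases between the copies (a repeat of TTTC when read from the other strand), and the gamma-activated sequence as TTCNNNGAA, which reads alike on either strand. The letters of the response element occurred in the promoters of 7 of 7 GTPase genes (87.5% of their promoters) and 11 of 21 type I genes (47.8%), while 3.44% of all 32851 promoters held them. Those of the gamma-activated sequence occurred in 4 of 7 GTPase genes (4 of their 8 promoters) and 5 of 21 type I genes (21.7%), with 8.30% over all promoters. Both motifs stood in the promoters of 4 GTPase genes and 3 type I genes, with 0.454% over all promoters. A match is a run of letters and was not tested as a binding site.

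Stretches of 60 bases are shown for the GTPases whose promoters hold both motifs 11 bases apart, counted from start to start, with each motif in capitals.
Tgtp1, chr11:48992289-48992348, minus strand: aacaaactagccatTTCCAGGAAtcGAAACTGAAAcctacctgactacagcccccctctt
Igtp, chr11:58199496-58199555, plus strand: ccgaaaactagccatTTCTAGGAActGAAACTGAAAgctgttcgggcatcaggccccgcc
Irgm2, chr11:58214888-58214947, plus strand: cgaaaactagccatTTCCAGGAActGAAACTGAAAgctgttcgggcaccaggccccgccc
This spacing was noticed in these promoters and then counted. It occurred in 5 of the 32851 promoters, those of Tgtp1, Igtp, Irgm2, Tgtp2 and Gm12185, all on chromosome 11, and in the promoter of no type I member. The members that share it differed in their values, since Tgtp1 and Igtp were lower with erythrodiol and Irgm2 was not by the total-scaled ratio given below.

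The promoters of Irgm1, Gbp2 and Gbp3, shown because these GTPases carry only the response element here, had no gamma-activated sequence in the window of 300 bases.
Irgm1, chr11:48871421-48871480, minus strand: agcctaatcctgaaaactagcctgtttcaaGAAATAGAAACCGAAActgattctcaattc
Gbp2, chr3:142620579-142620638, plus strand: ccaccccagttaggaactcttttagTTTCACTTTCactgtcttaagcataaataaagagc
Gbp3, chr3:142559977-142560036, plus strand: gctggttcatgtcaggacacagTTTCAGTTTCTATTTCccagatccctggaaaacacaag
Type I members are shown for comparison, from the IFIT genes, whose ratios were low, to Bst2, the member of highest level in the control.
Ifit1, chr19:34640769-34640828, plus strand: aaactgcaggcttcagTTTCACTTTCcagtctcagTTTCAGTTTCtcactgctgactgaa
Ifit3, chr19:34583365-34583424, plus strand: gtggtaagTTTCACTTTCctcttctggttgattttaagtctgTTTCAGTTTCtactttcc
Isg15, chr4:156200856-156200915, minus strand: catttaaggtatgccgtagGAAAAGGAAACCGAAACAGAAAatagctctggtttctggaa
Oas1a, chr5:120907526-120907585, minus strand: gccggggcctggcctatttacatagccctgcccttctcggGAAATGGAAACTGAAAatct
Bst2, chr8:71537565-71537624, minus strand: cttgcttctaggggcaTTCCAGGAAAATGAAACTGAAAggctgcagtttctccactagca
In Isg15, Irgm1, Gbp3, Oas1a and Bst2 copies of the response element overlap, and in Bst2 the gamma-activated sequence overlaps them too.

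The deposited unit of gene expression is the expected count, an estimated number of reads in which a read is divided between genes it matches alike. Each gene has 1 value per group, the sum over its 7 libraries, so that no replicate error exists and no test between groups was possible for any gene. The ratio of erythrodiol to control was taken after each group was divided by its total of 122889032 or 124686047 counts, and is given as a log2 ratio. Its exact 95% interval (Clopper-Pearson) covers counting error only and not the differences between pools. All 37 members had at least 902 counts over both groups, and 13291 genes with at least 100 counts served as the background. The median log2 ratio of these genes was 0.16 and not 0, and it ran with gene length, from -0.18 in the shortest of 10 equal classes (333 to 1211 bases) to 0.33 in the longest (6116 bases and over). Each member was therefore also set against the median of the 300 genes nearest to it in length and count, called its like genes below.

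Clean reads per library ranged from 34856340 to 55244294 in the control and from 47669656 to 48058606 with erythrodiol. The share of reads mapped to genes ranged from 64.33% to 81.43% and from 72.96% to 76.13%. Control replicate 3 stood apart with the fewest reads and the lowest share, and gave 9.12% of the control's mapped pairs. No result below could be computed without it, because the gene values are group sums. Hepatocyte markers such as Alb and Ttr, which define the labelled tissue, were abundant, with 105167 CPM (counts scaled to a group total of 1000000) in the control and 104974 CPM with erythrodiol.

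The GTPases were lower with erythrodiol than their like genes in 9 of 9 cases, although Gbp7 and Irgm2 were slightly higher in the total-scaled ratio. Tgtp1 was 2.89-fold lower, and Igtp, Gbp2, Gbp6 and Gbp3 had log2 ratios from -0.48 to -0.32. The type I members had a median log2 ratio near 0 and lay on both sides of it, with the IFIT genes and Zbp1 at the low end and Stat2, Eif2ak2 and Trim25 at the high end. Over all members, 21 were lower in the total-scaled ratio (28.8% of all genes) and 16 higher (71.2% of all genes). Relative to like genes, 28 of 37 were lower (50.4% of all genes), made up of 19 type I members and 9 GTPases, and 9 were higher (49.6% of all genes). Of the 37 members, 7 lay below the central 90% of their like genes (5.43% of all genes), namely Tgtp1, Igtp, Gbp2, Gbp6, Gbp3, Ifit1 and Ifit2. None lay above it (5.32% of all genes).

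**Figure D1:**
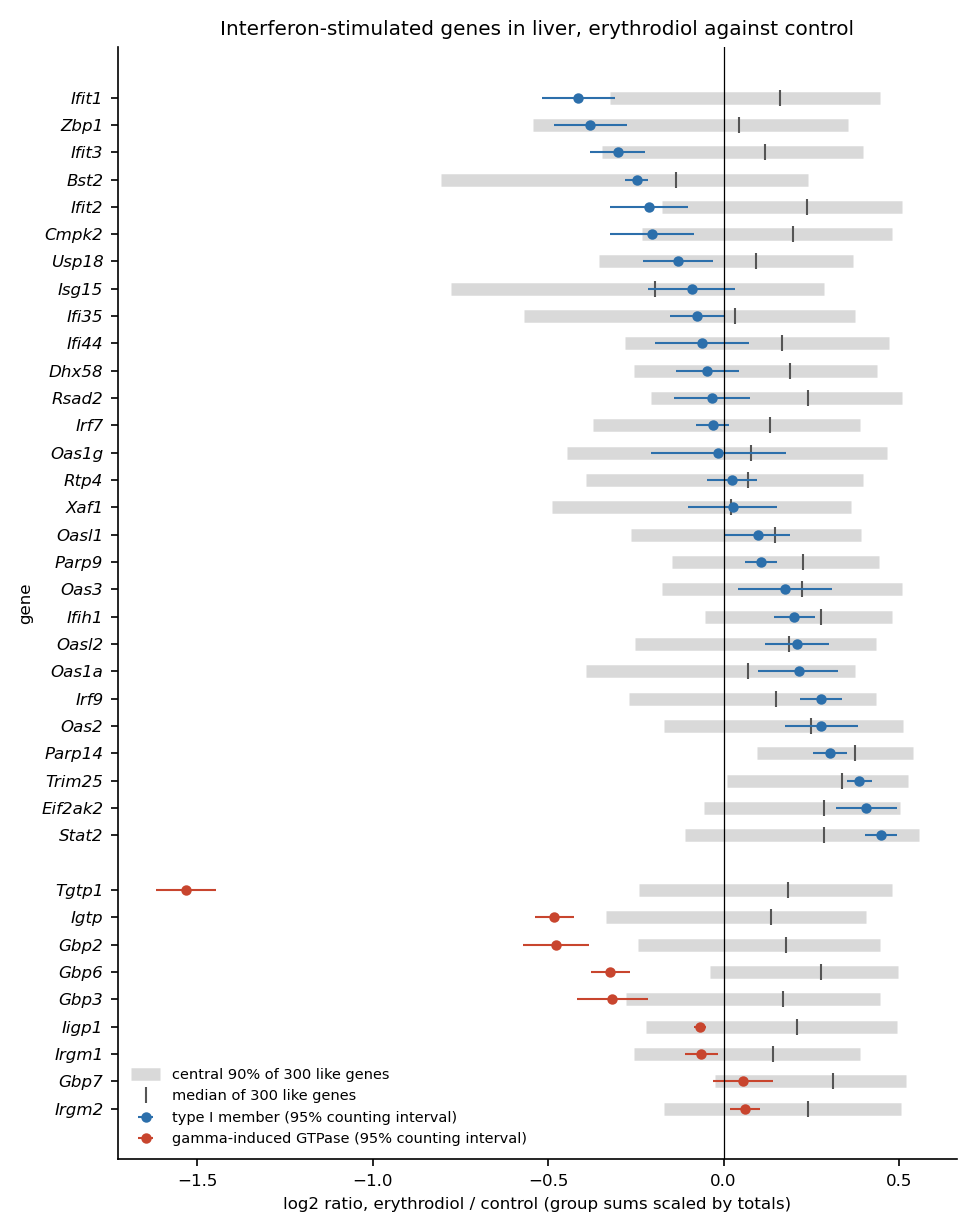
Log2 ratio between erythrodiol and control after scaling by totals, for the 28 type I members (blue) and 9 GTPases (red), with 95% counting intervals as bars; grey bands are the central 90% and black ticks the median of the 300 like genes of each member. Tgtp1 lies at -1.53, and 5 GTPases and 2 type I members lie below their grey band, while Gbp7 and Irgm2 lie above 0 but below their ticks.

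Fewer members passed larger limits. In the total-scaled ratio, 6 members were at least 20% lower, 2 type I and 4 GTPases (8.89% of all genes), and 3 type I members were at least 25% higher (24.4% of all genes). These limits are the same distance from 0 on the log2 scale. Only Tgtp1 was at least 1.5-fold lower (3.14% of all genes) or 2-fold lower (0.549% of all genes). No member was 1.5-fold higher (2.55% of all genes) or 2-fold higher (0.218% of all genes, and 0.143% relative to like genes). Relative to like genes, 10 members were at least 20% lower (12.6% of all genes), 5 in each class, and none was 25% higher (6.43% of all genes). At least 1.5-fold lower than like genes were 4 members (3.14% of all genes), the GTPases Tgtp1, Gbp2, Igtp and Gbp6, and none was 1.5-fold higher (1.23% of all genes). Tgtp1 alone was more than 2-fold lower than its like genes (0.436% of all genes). Counting intervals lay wholly below a ratio of 1 for 14 members (17.4% of all genes), 7 of each class, and wholly above 1 for 13 members (54.6% of all genes), 12 of them type I.

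Tgtp1, which encodes an IRG that coats parasite vacuoles, had 4222 control and 1482 erythrodiol counts. Its log2 ratio was -1.53 (95% counting interval -1.62 to -1.45), and it was -1.72 relative to its like genes, none of which was as low. The level per length was 12.2 CPM per kilobase in the control and 4.23 with erythrodiol. The gene lies on chromosome 11 of GRCm38 from 48985329 to 48992246, beside a near copy, Tgtp2. Of the windows of 100 bases in the Tgtp1 transcripts, 70.3% also occurred in Tgtp2, so that the division of reads between the copies is uncertain. Tgtp2 had 1248 control and 877 erythrodiol counts, a log2 ratio of -0.53. Summed, the copies gave whole numbers, 5470 control and 2359 erythrodiol counts, a log2 ratio of -1.23 (-1.30 to -1.16), or 2.35-fold lower. The share of the sum given to Tgtp1 was 77.2% in the control and 62.8% with erythrodiol. In group sums, a difference between the copies and a change in the division of reads cannot be told apart, so that the value of Tgtp1 alone is uncertain.

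Among the other IRGs, Igtp was lower and the remaining 3 differed little. Igtp, a regulatory IRG that guards the cell's own membranes, had 6191 control and 4495 erythrodiol counts (log2 ratio -0.48, interval -0.54 to -0.43, and -0.62 relative to like genes). Irgm2, its neighbour on chromosome 11, had 8992 and 9517 counts, a log2 ratio of 0.06 (0.02 to 0.10) that became -0.18 against like genes. These neighbours share 5.16% of the windows of Igtp, and their summed counts were 15183 in the control and 14012 with erythrodiol (log2 ratio -0.14). Igtp and Irgm2 have similar promoter windows, printed above. Their total-scaled ratios differed by more than their counting intervals, which leave out the spread between pools, and both genes were lower than like genes. Whether the motifs bear on these values was not tested.

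Irgm1, which also restrains other IRGs and acts in autophagy, had 7698 control and 7476 erythrodiol counts (log2 ratio -0.06, and -0.20 relative to like genes). Iigp1, an effector IRG, was by far the most abundant GTPase, with 51640.5 and 50042.8 counts and 141.6 against 135.2 CPM per kilobase. Its log2 ratio was -0.07 (-0.08 to -0.05), and -0.28 relative to like genes. Both lay within the central 90% of their like genes. Since Iigp1 made up most of the GTPase reads, the GTPases summed to 738 CPM in the control and 667 with erythrodiol, a smaller difference than that of Tgtp1 or Igtp.

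Of the 4 GBPs, which assemble on vacuoles and bacteria, 3 were lower with erythrodiol. Gbp2 had 2127 control and 1550.0 erythrodiol counts (log2 ratio -0.48, interval -0.57 to -0.38), and 0.333% of its like genes were lower. Gbp6 had 5892 and 4779.8 counts (log2 ratio -0.32, -0.38 to -0.27), and Gbp3 had 1785 and 1454 counts (log2 ratio -0.32, -0.42 to -0.22). The log2 ratios relative to like genes were -0.66 for Gbp2, -0.60 for Gbp6 and -0.49 for Gbp3. Gbp7 stood apart from them with 2188 and 2307 counts, a log2 ratio of 0.06 whose interval (-0.03 to 0.14) held 0, and -0.26 relative to like genes. Gbp6 is uncertain as a single gene, since 64.5% of its windows occurred in other genes, with 59.0% in Gm43302 and 36.3% in Gbp10. Gbp10 itself had a log2 ratio of -0.58, and Gbp6 and Gbp10 summed had 10829.7 control and 8131.4 erythrodiol counts (log2 ratio -0.43, -0.48 to -0.39). These sums are not whole numbers, so that reads were still divided with further genes.

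Among the type I members, the IFIT genes, whose products bind foreign RNA and block its translation, had low ratios. Ifit1 had 1739.95 control and 1325 erythrodiol counts (log2 ratio -0.41, interval -0.52 to -0.31). Ifit3 had 3001 and 2470.3 counts (log2 ratio -0.30), and Ifit2 had 1432 and 1254 counts (log2 ratio -0.21, -0.32 to -0.10). Against like genes they stood at -0.58, -0.42 and -0.45, lower than 93.3% or more of those genes. These members lie on chromosome 19 from 34550550 to 34650009, with Ifit3b, no member, between Ifit3 and Ifit1. Ifit3b had a log2 ratio of -0.13 (-0.30 to 0.04). Ifit1bl1, which overlaps the same stretch, had -0.59 (104 control and 70 erythrodiol counts). Ifit3 shares 31.7% of its windows with Ifit3b, and their sum had 3611 and 3036 counts (log2 ratio -0.27), so that its direction did not rest on the division of reads. Eif2ak2, the kinase that duplex RNA activates to halt translation, stood opposite them with 1875 and 2522 counts (log2 ratio 0.41, 0.32 to 0.49, and 0.12 relative to like genes).

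The genes of the OAS family, which is named for 2-5A synthetases that activate RNase L, were near their like genes. They lay between -0.09 (Oas1g) and 0.14 (Oas1a). In the total-scaled ratio 5 of the 6 were higher (71.2% of all genes), from 0.10 for Oasl1 to 0.28 for Oas2, and Oas1g was at -0.02. Against like genes, Oas3 and Oasl1 also turned below 0. Oasl2 (1779 and 2087 counts), Oasl1 (1807 and 1962) and Oas3 (849.95 and 974) shared none of their windows of 100 bases with another gene. Oas2 had 1397 control and 1720.0 erythrodiol counts. Oas1a had 1162 and 1367 counts and Oas1g 450.2 and 452, and 40.9% of its windows occurred in Oas1g. Summed, Oas1a and Oas1g had 1612 and 1819 counts, a log2 ratio of 0.15 (0.06 to 0.25).

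The transcription factors of the pathway did not share the low ratios of the IFIT genes. Stat2 had 6546 control and 9072 erythrodiol counts, the highest log2 ratio of all members at 0.45 (0.40 to 0.50). Irf9, its partner in the complex, had 4119 and 5063 counts (log2 ratio 0.28). Against like genes these ratios were 0.16 and 0.13, with 87.3% of the like genes of Stat2 below it. Irf7, which drives interferon genes themselves, had 7515 and 7461 counts (log2 ratio -0.03, -0.08 to 0.01, and -0.16 relative to like genes).

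In the system of Isg15, a ubiquitin-like protein attached to other proteins, no member was outside the central 90% of its like genes. Isg15 had 1082 control and 1031 erythrodiol counts, a log2 ratio of -0.09 that was 0.10 relative to like genes and -0.25 relative to the median of all genes. Usp18, which removes Isg15 and dampens the receptor, had 1684 and 1562 counts (log2 ratio -0.13, -0.23 to -0.03). Trim25, a ubiquitin ligase of RNA sensing, had 11302 and 15000 counts, a log2 ratio of 0.39 that was 0.05 relative to like genes. The high ratio of Trim25 was thus close to that of genes as long and as abundant.

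Of the effectors against viruses, Bst2, which tethers virus particles to the membrane, had the highest level of all members in the control, 156.4 CPM per kilobase, and 131.7 with erythrodiol. Its counts were 16647 and 14223, a log2 ratio of -0.25 (-0.28 to -0.22), which was -0.11 against genes of like length and count and 0.06 against genes of like length alone. Rsad2, whose product viperin makes a chain terminator of viral RNA synthesis, had 1380.0 and 1368 counts (log2 ratio -0.03, and -0.27 relative to like genes). Its neighbour Cmpk2, a nucleotide kinase of mitochondria, had 1213 and 1069 counts (log2 ratio -0.20, -0.32 to -0.08, and -0.40 relative to like genes).

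Among the sensors, Zbp1, which binds Z-form nucleic acid and starts necroptosis, had 1741 control and 1358 erythrodiol counts (log2 ratio -0.38, -0.48 to -0.28, and -0.42 relative to like genes). This was the lowest type I member after Ifit1 in the total-scaled ratio, but it lay within the central 90% of its like genes. Ifih1, which senses long duplex RNA, had 4420.0 and 5158 counts, a log2 ratio of 0.20 that became -0.08 against like genes. Dhx58, its helper, had 2046 and 2010.0 counts (log2 ratio -0.05, and -0.24 relative to like genes).

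The ADP-ribosyltransferases Parp14 (6093 control and 7632 erythrodiol counts) and Parp9 (7445 and 8142), which lie together on chromosome 16, had log2 ratios of 0.30 and 0.11 that became -0.07 and -0.12 against like genes. Ifi44, Ifi35, Rtp4 and Xaf1, which have less settled roles, had log2 ratios between -0.07 and 0.03, and between -0.23 and 0.01 relative to like genes. Ifi44 had 939 and 913 counts, Ifi35 had 2722 and 2623, Rtp4 had 3121 and 3218, and Xaf1 had 993 and 1026.5. Rtp4 stood at 0.02 in the total-scaled ratio and -0.05 relative to like genes. Each of these 6 genes stayed within the central 90% of its like genes.

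Set side by side, the GTPases had a lower median log2 ratio than the type I members, -0.32 against 0.0038, with 0.16 over all genes. The difference of the medians was -0.32, and -0.40 relative to like genes, where the medians were -0.49 and -0.09. No test was possible, and members are not replicates. Of the 28 type I members, 2 lay below the GTPase median in the total-scaled ratio and 1 relative to like genes. By that measure, 19 type I members lay above every GTPase and 9 did not, so that the classes overlapped. Tgtp1 weighs on this contrast, since the difference was -0.20 without it. In summed reads the type I members had 785 CPM in the control and 835 with erythrodiol.

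**Figure D2:**
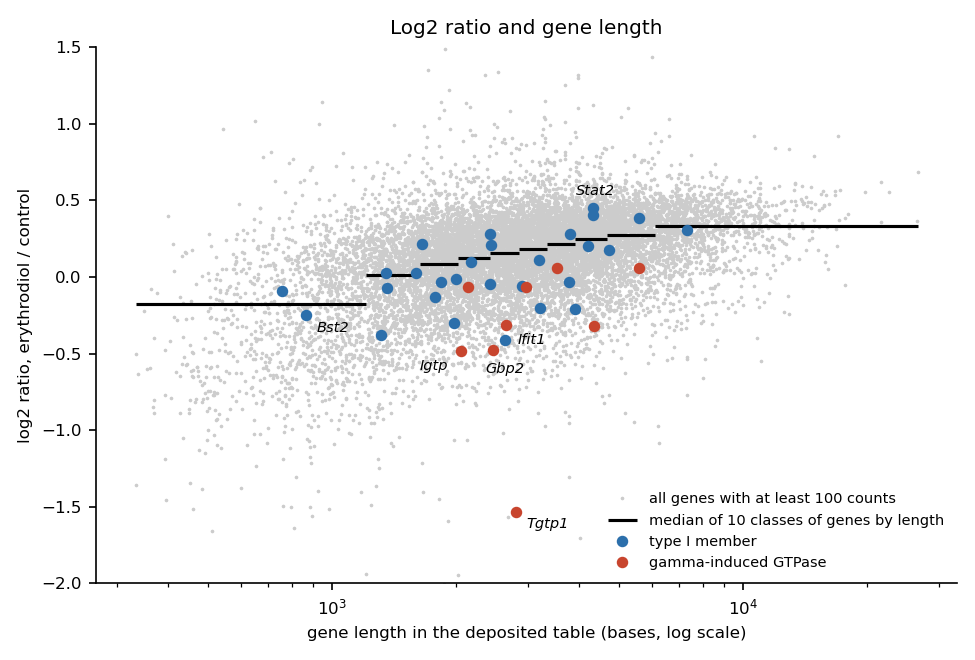
Log2 ratio between erythrodiol and control after scaling by totals, against gene length in bases on a log axis, for all genes with at least 100 counts (grey), type I members (blue) and GTPases (red); black lines are medians of 10 classes of genes by length, and 13 genes outside -2 to 1.5 are not drawn. The medians run from -0.18 to 0.33, and Tgtp1 lies far below genes of its length, while Stat2 lies above and Bst2 close to them.

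Levels per length spread widely among the members. In the control they ran from 1.47 CPM per kilobase for Oas3 to 156.4 for Bst2, and Iigp1 at 141.6 was the only other member above the 33.2 of Irf7. With erythrodiol Bst2 was at 131.7, Iigp1 at 135.2 and Oas3 at 1.66. Bst2 was thus above Iigp1 in the control and below it with erythrodiol. Tgtp1 stood between Stat2 and Isg15 in the control, at 12.2 CPM per kilobase beside 12.3 and 11.6, and with erythrodiol its 4.23 lay among Gbp3 at 4.41 and Ifit1 at 4.03.

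**Figure D3:**
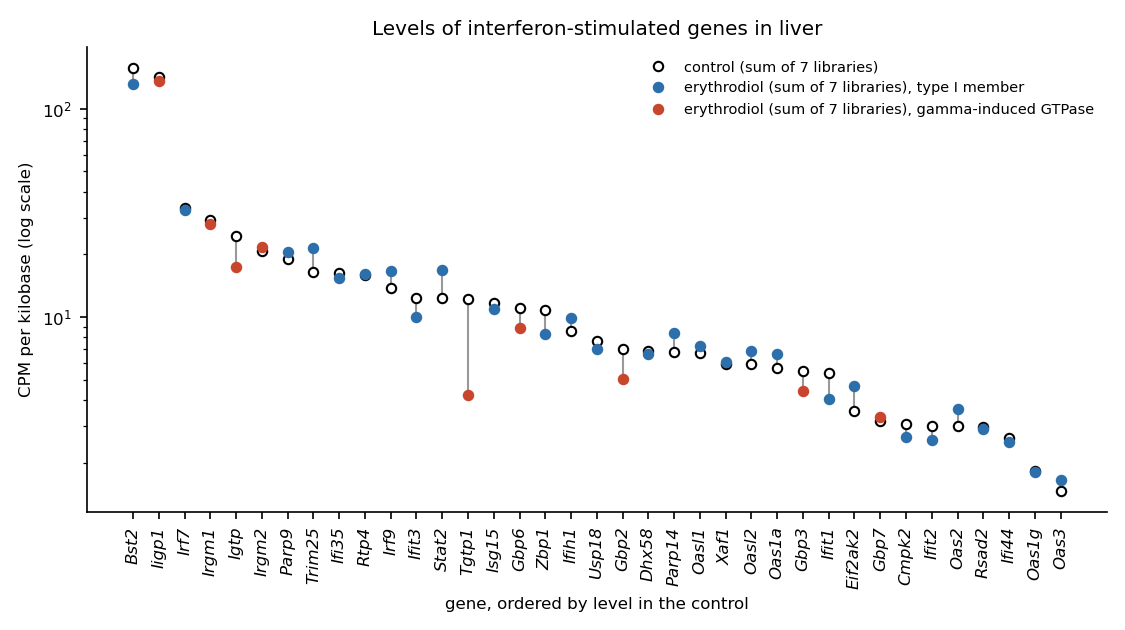
Level of each member in CPM per kilobase on a log axis, ordered by the control; open circles are the control and filled circles erythrodiol (blue type I, red GTPase), each the sum of 7 libraries without an error. The widest gap is that of Tgtp1, from 12.2 to 4.23, and Bst2 and Iigp1 lie far above the rest in both groups.

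The members lie on 15 chromosomes, and 20 of them form 8 clusters with gaps of at most 500000 bases. Genes of a cluster were alike in some cases and not in others. The 3 IFIT members of chromosome 19 had log2 ratios between -0.41 and -0.21, and the 4 OAS members of the larger cluster on chromosome 5 between -0.02 and 0.28. Among the GBPs of chromosome 3, from 142530336 to 142638008, the range was wider, from -0.48 for Gbp2 to 0.06 for Gbp7. On chromosome 11 both IRG clusters held an unequal pair, Tgtp1 at -1.53 with Irgm1 at -0.06, and Igtp at -0.48 with Irgm2 at 0.06.

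Further interferon-induced GTPases, a list of 21 of which 15 had at least 100 counts, included both lower and higher genes. Of these, 11 were lower (50.4% of all genes) and 4 higher (49.6% of all genes) than like genes, with a median of -0.41. By that measure 10 were at least 20% lower (12.6% of all genes) and 2 at least 25% higher (6.43% of all genes). The lowest total-scaled ratio was that of Gm12250, also known as Irgb10, at -0.86 (645 control and 360.0 erythrodiol counts), and Gbp10 and Tgtp2 were given above. The highest was that of F830016B08Rik, at 0.67 (4459 and 7216 counts), higher than 99.0% of its like genes. Gm4951, with the largest count of the list, was at 0.27 and 0.06 relative to like genes. Ratios of these further GTPases thus lay on both sides of those of like genes.

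Further type I targets, 44 genes of a list of 48 with at least 100 counts, had a median log2 ratio of -0.04, and -0.17 relative to like genes. Of these, 33 were lower (50.4% of all genes) and 11 higher (49.6% of all genes) than like genes. By that measure 8 were at least 20% lower (12.6% of all genes) and none 25% higher (6.43% of all genes). Lgals9, a galectin with the largest count, had a log2 ratio of 0.22, and the range ran from Ifi27l2a at -0.81 to Helz2 at 0.43, which were -0.50 and 0.03 relative to like genes. Other targets of interferon gamma, 12 genes, had a median log2 ratio of -0.10, and -0.19 relative to like genes. Among them, 11 were lower (50.4% of all genes) and 1 higher (49.6%) than like genes. At least 20% lower than like genes were 4 (12.6% of all genes), and none was 25% higher (6.43% of all genes). Ubd, a ubiquitin-like modifier, was lowest at -0.81, or -0.73 relative to like genes (993 control and 575 erythrodiol counts). B2m, the light chain of class I molecules and the largest count, was at 0.06 and 0.13 relative to like genes, and Nlrc5, a regulator of those molecules, was highest at 0.27 but -0.09 relative to like genes.

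The receptors were close to their like genes. Of the 5 that had 100 counts, 0 were at least 20% lower (12.6% of all genes) or 25% higher (6.43% of all genes). Ifnar1 was highest at 0.35, Ifnar2 had the largest count and a log2 ratio of 0.12, and Ifngr1, which binds interferon gamma, was lowest at -0.07. Relative to like genes these were -0.02, 0.12 and -0.20. In the list of genes that carry the signal onward, Socs3, a feedback inhibitor, had the lowest log2 ratio at -0.33 (-0.52 relative to like genes). The 5 further IRF genes of that list, named after their values were seen, lay on both sides of 0, with log2 ratios of -0.26 for Irf1, -0.22 for Irf8, 0.07 for Irf5, 0.11 for Irf3 and 0.26 for Irf2. Against like genes these were -0.38, -0.43, -0.07, 0.01 and 0.12. Jak1, the kinase with the largest count, was at 0.21, and Stat3 was highest at 0.37, though they were -0.11 and 0.05 relative to like genes.

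In nucleic acid sensing, 8 of 12 genes were lower (50.4% of all genes) and 4 higher (49.6% of all genes) than like genes. Mavs, the adaptor of the RNA sensors, had the largest count and the highest log2 ratio at 0.41 (0.21 relative to like genes), and Tlr7, a receptor of endosomes, was lowest at -0.43 (-0.59 relative to like genes). Interferon transcripts themselves were near the limit of counting. Of 21 ligand genes, 4 had a row, with 0 and 1 counts for Ifnb1, 3 and 3 for Ifnk, 1 and 0 for Ifnz, and 7 and 8 for Ifng in the control and erythrodiol groups. A difference in these ligands was not detectable at this depth.

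Markers of some other liver cells were lower in the same comparison. Over all genes, 50.4% were lower and 49.6% higher than like genes, and 28.8% were lower and 71.2% higher in the total-scaled ratio. All 8 Kupffer cell markers, such as Clec4f and Cd5l, were lower, with a median of -0.73 relative to like genes, and their sum was 1091 CPM in the control and 701 with erythrodiol. All 8 markers of monocytes and macrophages were lower than like genes too (381 and 267 CPM), as were all 6 of bile duct cells (117 and 79.6 CPM). For T and NK cells 7 of 10 were lower than like genes (11.5 and 11.1 CPM), and for B cells 3 of 6 (11.4 and 11.8 CPM). Of 3 neutrophil markers with at least 100 counts, 2 were lower (11.3 and 6.20 CPM for the list of 7), and of 5 markers of plasmacytoid dendritic cells, 3 (19.0 and 20.2 CPM for the list of 8). Markers of sinusoidal endothelium (212 and 221 CPM) and of stellate cells (591 and 607 CPM) were lower than like genes in 7 of 8 cases each, although 5 and 6 of these 8 were higher in the total-scaled ratio. Of the 8 hepatocyte markers, 7 were higher than like genes. No marker list summed to 0 in either group. In RNA of whole liver, fewer cells of a type and less RNA per cell cannot be told apart, and the part of these cell types in the lower GTPase and IFIT values was not tested.

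**Figure D4:**
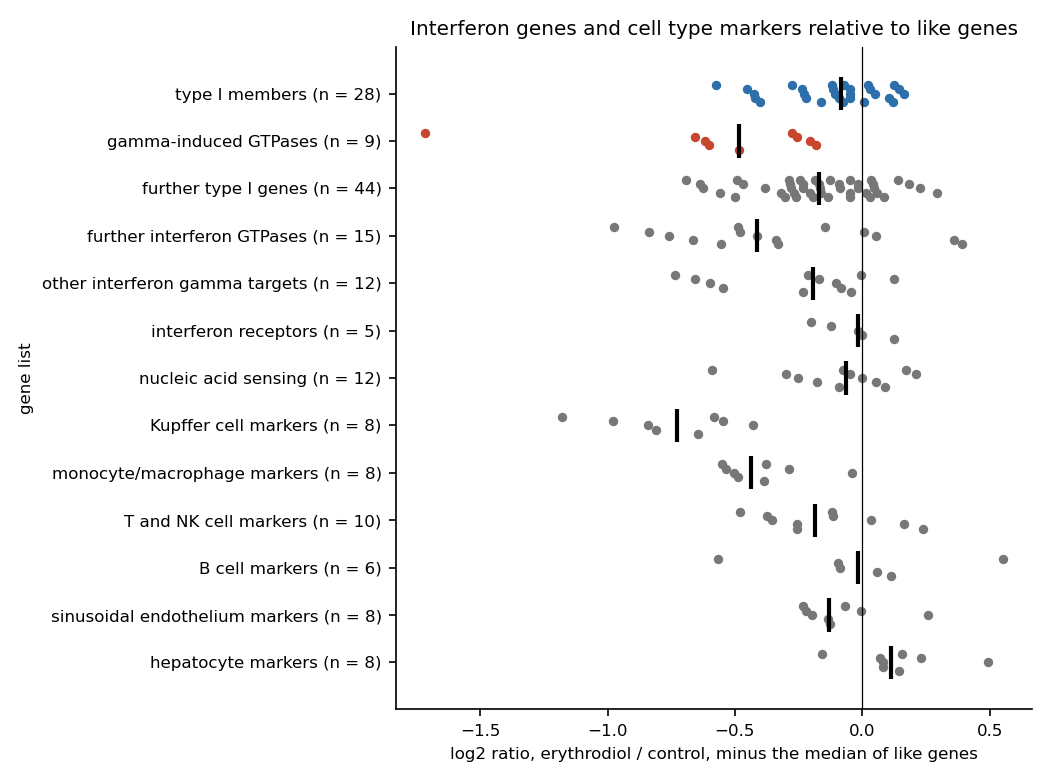
Log2 ratio of erythrodiol to control minus the median of like genes, for every gene with at least 100 counts (points) in 13 lists, with the list's median as a black bar; type I members are blue, GTPases red, other lists grey. Of the lists drawn, which leave out those of neutrophils, bile duct, stellate and plasmacytoid dendritic cells, the Kupffer cell markers (-0.73), GTPases (-0.49) and macrophage markers (-0.44) have their medians farthest left, and the type I members lie around -0.09.

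The structure of the transcripts gave few further differences. New coding transcripts assembled by the authors were assigned to 14 of the 37 members, 22 in all, led by Iigp1 with 4 and Oas2 with 3, while 35.8% of all genes used had at least 1. In the filtered lists of splicing events, where 1 class, that of donor sites, had no entry, 0 of the 37 members and 0.120% of all genes used were found. Whole counts in both groups (within 0.005 counts), in which no divided read shows, were found for 23 members, and 14 members had divided reads, among them Tgtp1, Gbp6, Igtp, Irgm1, Irgm2, Iigp1, Ifit1, Ifit3, Oas1a and Oas1g.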

How the data were processed

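Liver polyA RNA of 7 control and 7 erythrodiol pools was sequenced as paired ends on a BGISEQ-500 instrument, and groups were taken from the labels. The authors mapped clean reads with Bowtie2 to reference and newly assembled coding transcripts and estimated expected counts per gene with RSEM, without stated strand, and deposited the sum of the expected counts per group. The deposited clean reads per library are counts, and the deposited mapping rates are percent of them. The authors' own log2 ratios, p-values and q-values, from a comparison of pooled reads, were not used.

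Members and lists were chosen with earlier results of these data known. All members are named, and of other lists the genes of largest count, of highest and lowest ratio, and near copies of members. Others named were chosen after their values were seen. Counts over the list of kinases, STATs and IRFs are not reported here. Counts were not rounded for ratios and were rounded for intervals. Like genes were the 300 nearest in log2 length and log2 count. Shared windows of 100 bases were found in GENCODE transcripts of GRCm38, not the authors' annotation. Scripts were tested on simulated data. The scripts ran on Python 3.11.15 with scipy 1.17.1, pandas 2.3.3, numpy 2.4.6 and, for plots, matplotlib 3.10.9. Alternatives were other scalings, a pseudocount of 1, other fold limits, leaving out or summing near copies, 100 or 1000 like genes and leaving out the IFIT genes, the last of these and the numbers of like genes added after seeing the data.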

Additional observations from a re-analysis of the deposited data

Results flagged for a closer look

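Control replicate 3 lay far from the other 6 control libraries in its mapping rates, by more than the critical gap for a group of 7. Its clean reads mapped to genes at 64.33% and to the genome at 76.66%, while the medians of the control were 75.3% and 94.41% and the erythrodiol libraries lay between 72.96% and 76.13% and between 93.48% and 94.55%. For a single measure, chance alone would single out about 1 group in 20. Several measures of reads and mapping were searched in both groups, so that some flag by chance was likelier than that. The library contributed 9.12% of the control's mapped pairs, and its part in the value of any interferon-stimulated gene was not tested, since the gene values are group sums.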

How the results depend on the processing

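The GTPase median log2 ratio of -0.32 was -0.48 relative to the median of all genes, -0.47 relative to genes of like length, -0.49 relative to like length and count (-0.49 with 100 or 1000 such genes) and -0.42 with totals that left out the 100 most abundant genes, and -0.19 without Tgtp1. The type I median of 0.0038 was -0.16, -0.085 (-0.086 and -0.084 with 100 or 1000 genes) and -0.10 relative to the median of all genes, to like length and count, and with the reduced totals. The difference between the medians, -0.32, was -0.42 relative to like length and -0.20 without Tgtp1. The single member at least 1.5-fold lower became 3 relative to the median of all genes, to like length or with the reduced totals, 4 relative to like length and count, and 6 where the limit was 20% lower, while 3 were at least 25% higher instead of 0 past 1.5-fold. Between 5 and 10 of the 37 members changed the sign of their log2 ratio under a scaling, and 0 with a pseudocount of 1. The 100 and 1000 genes were added after seeing the data. No paired analysis was possible because the gene values are group sums without replicate columns, and for the same reason no library could be left out in turn. Counting intervals had a median reach to either side of 0.087 on the log2 scale, and the spread between pools is unknown.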
